A study of Mus musculus with 8 samples.

Results

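The elastic fibre and microfibril genes described here are Eln, Fbn1, Fbn2, Fbln1, Fbln2, Fbln5, Emilin1, Mfap2, Mfap4 and Mfap5. They were chosen by name, as the genes of elastin, the fibrillins and the fibulins, emilin and small glycoproteins that bind to them, and all 10 were found among the 50462 gene identifiers of the count table. Earlier results of these data were known when they were chosen, so the choice was not blind to the data. Expression was measured by RNA-seq in cartilage caps dissected from the medial knee of individual wild-type male C57BL/6J mice, with 1 library per mouse and 4 mice per group. Naive mice were sampled at day 0, aged 11 weeks, without surgery. DMM mice were operated on at the same age, with destabilisation of the medial meniscus by cutting the ligament that ties it to the tibia, and their cartilage was taken at day 42, when they were 17 weeks old. This operation is a surgical model of post-traumatic osteoarthritis. No sham-operated mice were analysed here, so surgery and the added 6 weeks of age cannot be told apart.

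Elastic fibres give tissues their recoil. Fibrillins assemble outside the cell into thin beaded microfibrils, soluble elastin is deposited on this scaffold and fixed there by lysyl oxidases, and fibulins, emilins and microfibril-associated glycoproteins bind at or near the interface. Microfibrils also occur without elastin and hold latent TGF-beta through its binding proteins. In articular cartilage fibrillin microfibrils surround chondrocytes, whereas elastin is sparse and lies mainly near the joint surface.

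Expression of 7 of the 10 genes rose in DMM cartilage. These were Eln, Fbn1, Fbn2, Mfap2, Mfap5, Fbln2 and Fbln5, with increases between 1.55-fold for Fbln5 and 2.41-fold for Eln. None was called lower by DESeq2, edgeR or limma-voom, and none had a lower DMM mean. Calls required both a DESeq2 adjusted p of at most 0.05 and a difference of at least 1.5-fold, and by this rule 7.75% of the 17760 genes tested were called higher. The median log2 fold change of the 9 members with an adjusted p was 0.88, against -0.02 for all genes tested. In 6 members every DMM library lay above every naive library, which was also the case for 11.9% of all genes tested. All 10 fitted log2 fold changes were positive, with median-of-ratios scaling and with scaling by the total count, under which the median of all genes was 0.14. These are whole-tissue libraries, in which a change in the number of cells of a type and a change in RNA per cell cannot be told apart.

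**Figure D1:**
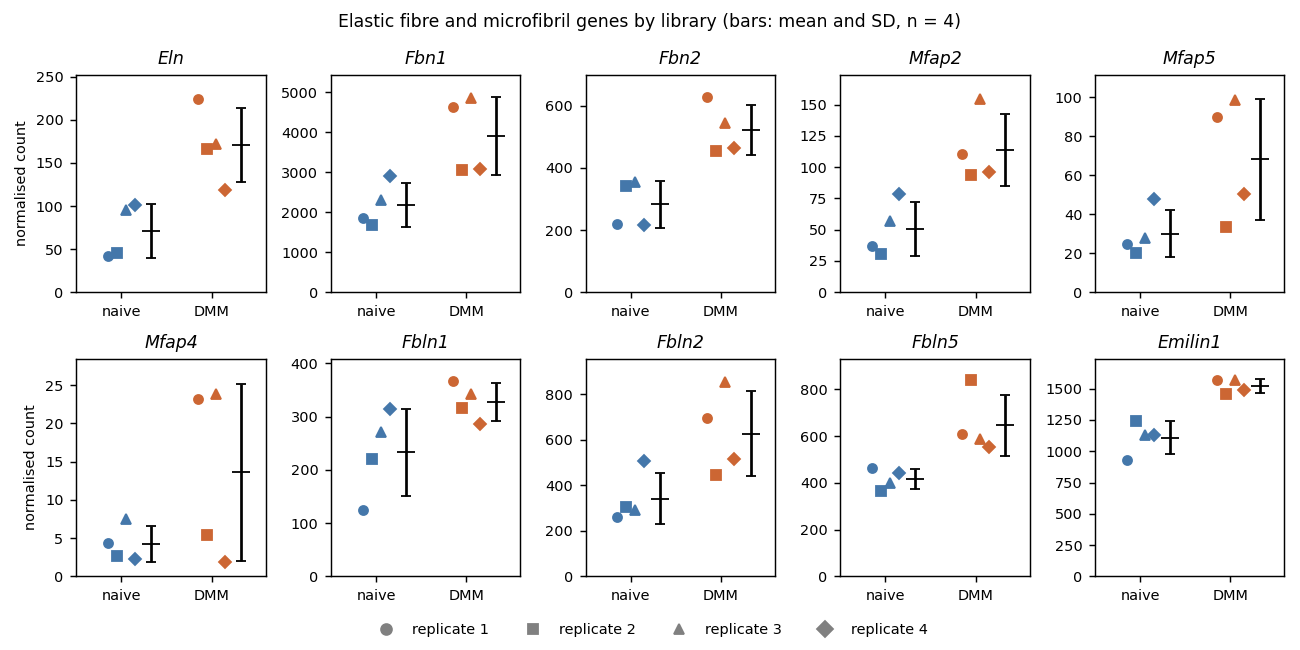
Normalised counts (y axis, linear from 0) of the 10 genes in each naive and DMM library, with the mean and SD of 4 beside each group and a symbol for each replicate number. The DMM points lie wholly above the naive points for Eln, Fbn1, Fbn2, Mfap2, Fbln5 and Emilin1 and overlap them for Mfap5, Mfap4, Fbln1 and Fbln2.

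Of the members, 6 had an entry in the RefSeq table of sequences upstream of gene starts. Sequence is shown for Fbln5 and Fbln1, the only entries with a window that holds no annotated exon, because one of these fibulin genes was called and the other was not. Their log2 fold changes were close, 0.63 (SE 0.16) for Fbln5 and 0.50 (SE 0.24) for Fbln1. Fbln5 lost its call without naive 2 or DMM 2, and Fbln1 gained one without naive 4. Each window holds the 250 bases before a start of the gene in GRCm38.p6 and is written 5′ to 3′ on the strand of the gene, at chr12:101819120-101819369 on the minus strand for Fbln5 and chr15:85205699-85205948 on the plus strand for Fbln1. Capitals mark matches to the motifs searched.
Fbln5: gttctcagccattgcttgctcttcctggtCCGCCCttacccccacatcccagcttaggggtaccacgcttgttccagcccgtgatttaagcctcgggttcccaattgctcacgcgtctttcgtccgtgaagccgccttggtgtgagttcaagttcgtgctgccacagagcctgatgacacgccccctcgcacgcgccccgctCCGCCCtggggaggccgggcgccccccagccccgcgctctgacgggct
Fbln1: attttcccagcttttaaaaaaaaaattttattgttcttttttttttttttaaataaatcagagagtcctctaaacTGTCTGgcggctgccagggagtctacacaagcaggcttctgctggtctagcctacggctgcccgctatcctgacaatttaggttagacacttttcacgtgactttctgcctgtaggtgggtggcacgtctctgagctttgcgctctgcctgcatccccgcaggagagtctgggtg
The Fbln5 window had a GC content of 65.2% and 2 matches to the GC box (GGGCGG), which is the only motif of the set found there. The Fbln1 window had a GC content of 46.4% and 1 match to the SMAD motif (CAGACA). Among all 32851 windows of 27025 genes the median GC content was 52.4%, a GC box was present in 32.7% and a SMAD motif in 17.1%. The other motifs searched on both strands were AP-1 (TGANTCA, in 6.75% of windows), TEAD (GGAATG, 12.6%), the TATA box (TATAAA, 12.4%) and the E-box (CAGCTG, 13%), and neither window held one. A second window of each gene overlaps its own annotated exons and is not shown. For Fbln5 it held 1 SMAD motif and no GC box. The second Fbln1 window, chr15:85205758-85206007, overlaps the one shown. It held the same SMAD match, with 1 GC box and 1 E-box. These are matches of letters only, and binding was not measured.

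Eln (ENSMUSG00000029675, GRCm38 chromosome 5, 134702593 to 134747323, minus strand) encodes tropoelastin, the soluble precursor that becomes the elastic core of the fibre. Normalised counts, which are estimated counts divided by a size factor for each library, were 42.2, 45.2, 95.3 and 100.9 in naive libraries 1 to 4 and 224.7, 166.6, 172.1 and 119.1 in DMM libraries 1 to 4. The lowest DMM library was above the highest naive library, although naive libraries 1 and 2 had less than naive libraries 3 and 4. The mean rose from 70.9 ± 31.5 to 170.6 ± 43.2 (SD, n = 4), or 1.27 in log2 units (SE 0.31, DESeq2 adjusted p = 0.000588). Leaving out any 1 of the 8 libraries kept the call. Of the 31-base words in Eln transcripts, 3.93% also occur in other genes, chiefly the antisense gene Gm30003, which had at most 3 estimated counts in a library.

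Fbn1 and Fbn2 encode the fibrillins, the main structural proteins of the microfibril. Fbn1 (ENSMUSG00000027204, chromosome 2, 125300594 to 125507993, minus strand) is the form mutated in Marfan syndrome and predominates in adult tissues. It had 1857.3, 1685.6, 2298.9 and 2906.0 normalised counts in naive and 4625.0, 3057.3, 4860.2 and 3091.1 in DMM libraries. The groups did not overlap, but DMM libraries 2 and 4 were only slightly above naive library 4. The mean rose 1.79-fold, from 2187.0 ± 544.6 to 3908.4 ± 968.1 (log2 fold change 0.84, SE 0.21, DESeq2 adjusted p = 0.000707). A part of its 5′ end is shared with Gm9913, a gene on the opposite strand at 125505089 to 125507881 of the same chromosome, and 19.89% of its 31-base words occur in other genes. Gm9913 itself had between 8.45 and 29.3 estimated counts per library, against 1266.5 or more for Fbn1.

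Fbn2 (ENSMUSG00000024598, chromosome 18, 58008623 to 58210487, minus strand) encodes the fibrillin found mainly in developing microfibrils. It had 219.9, 341.9, 354.3 and 215.4 normalised counts in naive and 627.8, 454.7, 545.0 and 463.9 in DMM libraries. No DMM library fell within the naive range. The mean rose 1.85-fold, from 282.9 ± 75.5 to 522.8 ± 80.9 (log2 fold change 0.89, SE 0.20, DESeq2 adjusted p = 0.000157). Both fibrillins remained called in all 8 fits without 1 library.

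Mfap2 and Mfap5 encode MAGP-1 and MAGP-2, small glycoproteins of the microfibril that bind fibrillin. Mfap2 (ENSMUSG00000060572, chromosome 4, 141010418 to 141015984, plus strand) had 36.9, 30.6, 56.7 and 78.2 normalised counts in naive and 110.3, 93.5, 154.8 and 95.7 in DMM libraries. The groups were separate, and the mean rose 2.25-fold from 50.6 ± 21.5 to 113.6 ± 28.5 (log2 fold change 1.17, SE 0.30, DESeq2 adjusted p = 0.00146). Mfap5 (ENSMUSG00000030116, chromosome 6, 122505845 to 122529290, plus strand) had 24.6, 20, 27.8 and 47.6 normalised counts in naive and 89.6, 33.3, 98.8 and 50.5 in DMM libraries. DMM library 2 lay below naive library 4, so the groups overlapped. The Mfap5 mean rose 2.28-fold, from 30 ± 12.2 to 68.1 ± 31.2 (log2 fold change 1.19, SE 0.39, DESeq2 adjusted p = 0.0163). This call rested on few counts and on single libraries. The DESeq2 adjusted p was 0.0666 without naive 1, 0.0666 without naive 2, 0.0984 without DMM 1 and 0.0913 without DMM 3, and with all libraries edgeR gave an adjusted p of 0.0526 and limma-voom 0.0731.

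Mfap4 (ENSMUSG00000042436, chromosome 11, 61485431 to 61488900, plus strand) encodes a fibrinogen-related glycoprotein that binds elastin and fibrillin. Its estimated counts were 5, 2, 7 and 2 in naive and 28, 5, 29 and 2 in DMM libraries, too few to pass the filter on low counts, and DESeq2 gave no adjusted p. The normalised counts were 4.4, 2.66, 7.49 and 2.27 in naive and 23.2, 5.37, 23.9 and 1.81 in DMM libraries. Only DMM libraries 1 and 3 were above the naive range, and DMM library 4 was the lowest of all 8. The group means were 4.2 ± 2.38 and 13.6 ± 11.6 (SD, n = 4).

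The fibulins are calcium-binding glycoproteins of the matrix. Fbln5 (ENSMUSG00000021186, chromosome 12, 101746565 to 101819055, minus strand) encodes fibulin-5, which binds tropoelastin and is needed for elastic fibre assembly. It had 462.6, 364.5, 401.3 and 442.2 normalised counts in naive and 608.7, 839.6, 587.8 and 553.2 in DMM libraries. The groups did not overlap, and DMM library 2, low among DMM libraries for most members, was here the highest. The mean rose from 417.7 ± 43.6 to 647.3 ± 130.2 (log2 fold change 0.63, SE 0.16, DESeq2 adjusted p = 0.00104). The change was close to the 1.5-fold limit and fell under it without naive 2, with a log2 fold change of 0.57, and without DMM 2, with 0.48.

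Fbln2 (ENSMUSG00000064080, chromosome 6, 91212455 to 91272540, plus strand), the gene of fibulin-2, a fibrillin- and elastin-binding protein, had 261.2, 306.0, 293.3 and 505.7 normalised counts in naive and 697.4, 444.0, 855.3 and 514.4 in DMM libraries. Naive library 4 lay above DMM library 2. The mean rose 1.84-fold, from 341.5 ± 111.1 to 627.8 ± 185.5 (log2 fold change 0.88, SE 0.25, DESeq2 adjusted p = 0.00336), and the call held without any 1 library. Fbln1 (ENSMUSG00000006369, chromosome 15, 85205949 to 85286535, plus strand), the gene of fibulin-1, a component of elastic fibres and basement membranes, had 124.9, 219.5, 271.8 and 314.1 normalised counts in naive and 366.6, 316.0, 342.5 and 285.2 in DMM libraries. Naive library 4 was above DMM library 4. Its means were 232.6 ± 81.6 and 327.6 ± 35, and it was not called (log2 fold change 0.50, SE 0.24, DESeq2 adjusted p = 0.126). Without naive 4 it was called, with a log2 fold change of 0.68 and an adjusted p of 0.022, and so it was with scaling by the total count, with 0.65 and 0.0381.

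Emilin1 (ENSMUSG00000029163, chromosome 5, 30913402 to 30921277, plus strand) encodes a glycoprotein at the interface of elastin and microfibrils that limits TGF-beta maturation. Its normalised counts were 929.5, 1242.6, 1133.4 and 1131.6 in naive and 1572.4, 1459.8, 1569.9 and 1486.5 in DMM libraries. Every DMM library was above every naive library, and the DMM libraries differed little among themselves, with a coefficient of variation of 3.78%. The means were 1109.3 ± 130.6 and 1522.1 ± 57.6 (log2 fold change 0.46, SE 0.11, DESeq2 adjusted p = 0.000558). The adjusted p passed the threshold, but the 1.37-fold difference was smaller than 1.5-fold, so Emilin1 was not called. With scaling by the total count the log2 fold change was 0.62 and Emilin1 was called.

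Levels of the 10 genes were compared with each other as normalised counts per kilobase of exon, using the union of annotated exons. In naive cartilage Emilin1 was the highest at 224.7 ± 26.4 and Fbn1 the next at 180.3 ± 44.9 (SD, n = 4), and the libraries of these neighbours overlapped. Fbln5 (60.4 ± 6.31), Fbln2 (53.6 ± 17.4), Fbln1 (53.2 ± 18.7), Mfap2 (41.8 ± 17.8) and Fbn2 (21.4 ± 5.71 per kilobase) followed, each overlapping its neighbour. Eln (8.76 ± 3.89) and Mfap5 (8.36 ± 3.39) overlapped each other, and Mfap4 was the lowest at 2.19 ± 1.24. Only the steps from Fbn1 to Fbln5, from Fbn2 to Eln and from Mfap5 to Mfap4 separated the 4 naive libraries of both neighbours. Emilin1 and Fbn1 made up 34.3% and 27.5% of the summed level per kilobase of the 10 genes, against 1.34% for Eln. The level of Eln depended on the length used. Per kilobase of the longest transcript it was 18.4 ± 8.17 in naive libraries against 25.6 ± 6.84 for Fbn2, with the same place in the order but overlapping libraries.

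In DMM cartilage Fbn1 had the highest mean level, 322.3 ± 79.8 per kilobase, and Emilin1 the next, 308.3 ± 11.7, again with overlapping libraries. Below them stood Fbln2 (98.6 ± 29.1), Mfap2 (93.8 ± 23.5), Fbln5 (93.7 ± 18.8) and Fbln1 (75 ± 8.01), then Fbn2 (39.6 ± 6.12), Eln (21.1 ± 5.33), Mfap5 (19 ± 8.69) and Mfap4 (7.06 ± 6.04 per kilobase). The DMM libraries of neighbours were separate at the steps from Emilin1 to Fbln2, from Fbln1 to Fbn2 and from Fbn2 to Eln. Eln made up 1.95% of the summed level of the 10 genes. Per kilobase of the longest transcript Eln (44.3 ± 11.2) and Fbn2 (47.4 ± 7.32) overlapped in DMM libraries too, and Emilin1 (395.2 ± 15) was above Fbn1 (326.5 ± 80.9) in mean.

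**Figure D2:**
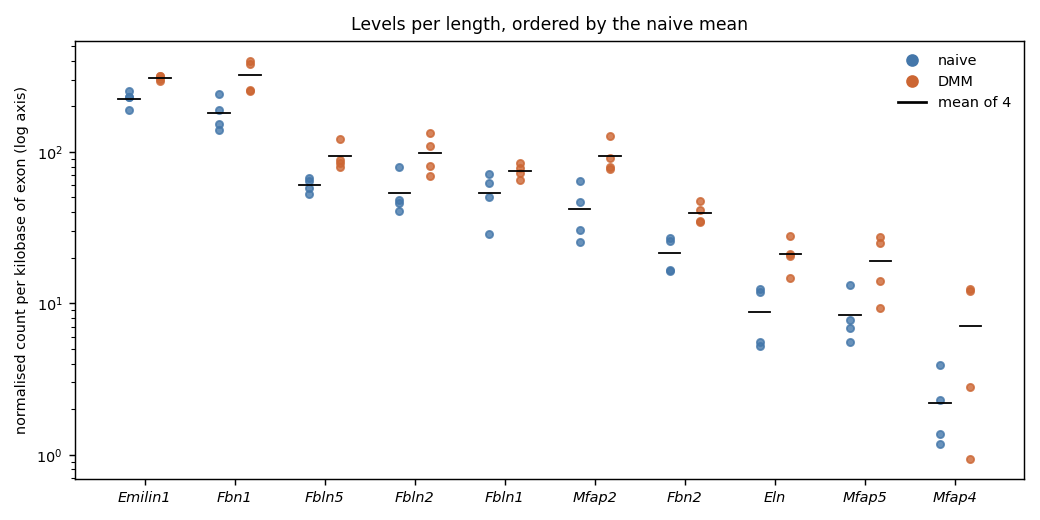
Normalised counts per kilobase of exon (y axis, log scale) of the 10 genes in naive and DMM libraries, in the order of their naive means, with a point for each library and a bar at the mean of 4. Emilin1 and Fbn1 lie well above the other genes in both groups, and Mfap4 is lowest.

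Whether related genes changed unequally was examined with log2 ratios within each library, which do not depend on scaling. The Eln to Fbn1 ratio was -5.44, -5.20, -4.59 and -4.84 in naive and -4.36, -4.19, -4.82 and -4.69 in DMM libraries. The groups overlapped, and the mean of -5.02 ± 0.38 in naive and -4.52 ± 0.29 in DMM (SD, n = 4) differed by 0.50 (two-sided exact permutation test, p = 0.114, adjusted over 4 ratios 0.457). The Fbn2 to Fbn1 ratio had means of -2.96 ± 0.62 and -2.88 ± 0.20, a difference of 0.08 (exact p = 0.886, adjusted 0.886). It ranged most among naive libraries, from -3.75 in naive 4 to -2.30 in naive 2. For Fbln2 to Fbln1 the means were 0.58 ± 0.40 and 0.90 ± 0.34 (difference 0.31, exact p = 0.257, adjusted 0.514), and for Mfap5 to Mfap2 -0.73 ± 0.20 and -0.83 ± 0.50 (difference -0.11, exact p = 0.743, adjusted 0.886). No difference in ratio passed the test. The smallest possible p with these group sizes is 0.0286, and a single ratio that reached it would have an adjusted p of 0.114, so that 1 ratio alone could not pass after adjustment. The sign of the Fbn2 to Fbn1 difference turned without naive 4, to -0.19, and that of Mfap5 to Mfap2 without DMM 2, to 0.11.

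**Figure D3:**
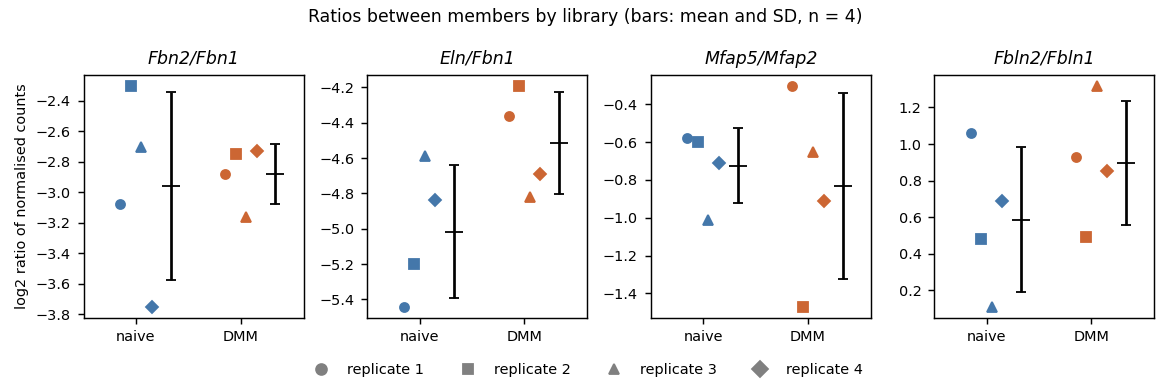
Log2 ratio of normalised counts (y axis) for 4 pairs of genes in each naive and DMM library, with mean and SD of 4 and a symbol for each replicate number. The naive and DMM points overlap in every pair.

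The 4 DMM libraries were not alike. DMM 1 was among the highest pair of DMM libraries for 10 of the 10 genes and DMM 3 for 9, whereas DMM 2 was so for 1, Fbln5, and DMM 4 for 0. Among naive libraries, naive 4 was the highest for 6 genes. The most similar profiles over the 8 libraries were those of Fbn1 and Fbln2, with a root mean square difference of 0.169 in log2(normalised count + 1) after centring each gene on its own mean. Fbn1 and Mfap2 followed at 0.271, Fbln2 and Mfap5 at 0.277, and Fbln5 and Emilin1 at 0.28. Mfap4 was farthest from the others, at 1.07 from Fbln5.

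Some marker lists of other cells were highest in the same DMM libraries, and others were not. CPM (counts scaled to an equal library total) summed over the 7 fibroblast markers were 176.1, 168.1, 209.5 and 271.1 in naive and 431.2, 276.6, 478.7 and 278.7 in DMM libraries, so that DMM 1 and DMM 3 were again the highest. Of these markers Thy1, Dpt and Pdgfra were called higher, with log2 fold changes of 1.05, 1.81 and 0.62. Among all genes tested 7.75% were called higher. The other fibroblast markers were not called in DESeq2, with log2 fold changes of 0.98 for Clec3b, 0.55 for Cd248, 0.13 for Dpp4 and -0.35 for Pi16. For Pi16 every DMM library was below every naive library (DESeq2 adjusted p = 0.00966). The share of all genes with this pattern was not counted. The sum of the 6 vascular smooth muscle markers was between 95 and 187.5 in naive and 327.9, 261.1, 398.3 and 289.8 in DMM libraries, and 4 were called higher. The 4 tendon and ligament markers summed to between 145.5 and 298.0 in naive and to 287.9, 161.0, 389.7 and 217.6 in DMM libraries. Of these, Tnmd and Scx were called higher, with log2 fold changes of 2.76 and 1.32. Mkx (0.23) and Thbs4 (0.14) were not called. The sum mainly followed Thbs4, with means of 2989.7 in naive and 3284.0 normalised counts in DMM libraries. For Tnmd the means were 10.1 and 68.5, and for Scx 34.1 and 84.2. In each of these lists too, DMM 1 and DMM 3 were the highest DMM libraries. The 6 endothelial markers, of which 3 were called higher, summed to between 207.7 and 282.3 CPM in naive libraries and to 371.7, 388.2, 326.1 and 376.5 in DMM libraries, so that DMM 3 was here the lowest and DMM 2 the highest. The summed level of the 10 elastic fibre genes was between 253.4 and 398.7 in naive and between 508.0 and 676.1 CPM in DMM libraries. The part of these cells in the change of the elastic fibre genes was not tested.

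The 9 chondrocyte markers were all detected. Their sum was between 2557.2 and 3922.0 CPM in naive and between 5922.7 and 11403.0 in DMM libraries. It was highest in DMM 4, where the elastic fibre genes were comparatively low. Col2a1 had the most counts of the list in every library, with 97825.5 normalised counts in DMM 4. Col2a1, Acan, Sox9 and Col11a2 were the 4 called higher. Hapln1 (log2 fold change 0.79), Cnmd (0.46), Chad (0.40), Matn3 (-0.29) and Col9a1 (-0.36) were not called. Osteoblast and osteocyte markers ranged from 1186.4 to 1792.7 and from 2878.2 to 5335.6 CPM, with 6 of 7 called higher. Blood cell transcripts were abundant and lower in DMM libraries. The neutrophil lineage sum was 8002.6 to 11247.4 CPM in naive against 3763.2 to 7930.4 in DMM libraries (7 of 7 called lower). For the erythroid list the sums were 10683.9 to 17928.4 against 5908.7 to 12509.5 (6 of 7 called lower). Among all genes tested 7.75% were called higher and 5.92% lower. The 4 skeletal muscle markers summed to at most 62.1 CPM, in DMM 1. No marker was at 0 in all libraries. Total estimated counts were between 12479443 and 16548002 per library.

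**Figure D4:**
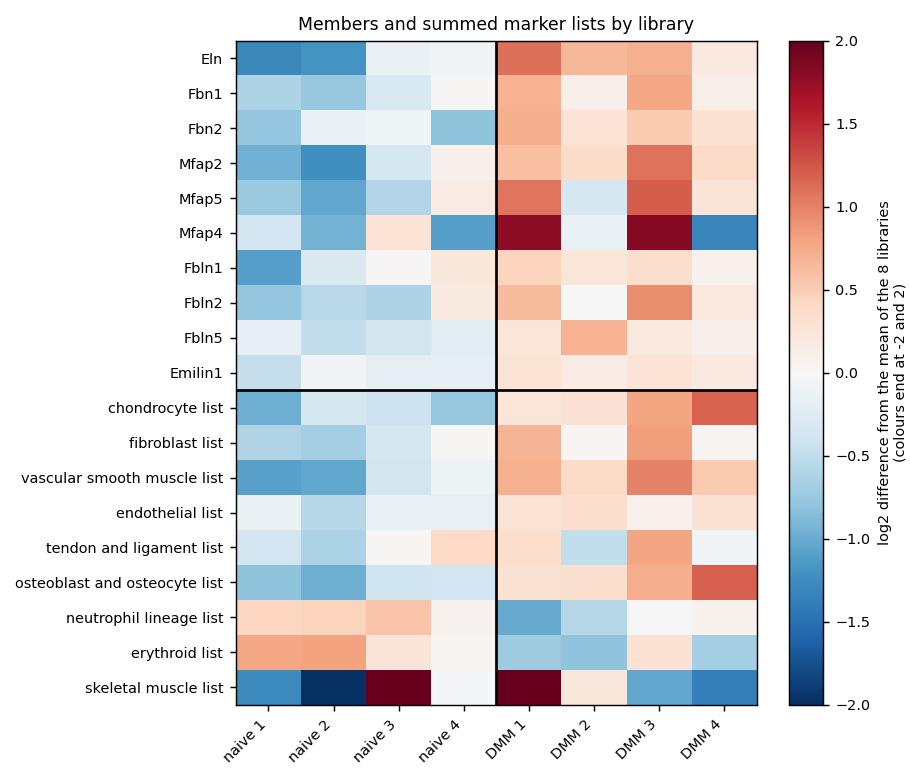
Log2 difference of each elastic fibre gene and each summed marker list (rows) from its own mean over the 8 libraries (columns), with colours ending at -2 and 2. Among DMM libraries most elastic fibre genes are highest in DMM 1 and DMM 3, as the fibroblast, vascular smooth muscle and tendon and ligament lists are. The chondrocyte list is highest in DMM 4.

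The other genes of elastic fibre biology were examined as a list of 44, of which 43 were tested. Expression of 17 rose, 1 fell and 25 were not called, with a median log2 fold change of 0.54, against 7.75% called higher and 5.92% called lower among all genes tested. Mmp7 had no count in any library.

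All 5 cross-linking enzymes, the lysyl oxidases that join elastin and collagen chains, were called higher. Loxl3 rose from 377.2 ± 63.3 to 701.0 ± 89 normalised counts (log2 fold change 0.90, DESeq2 adjusted p = 8.62e-07). Lox rose by a log2 fold change of 0.66, from 1545.4 ± 51.4 to 2434.4 ± 358.2, but fell under the 1.5-fold limit without DMM 3, at 0.55. Loxl1 reached 948.2 ± 201.0 normalised counts from 543.3 ± 84.4, a log2 fold change of 0.80, and Loxl2 had a log2 fold change of 1.18.

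All 4 latent TGF-beta binding proteins, which anchor latent growth factor to microfibrils or bind elastic fibre proteins, were also called higher in DESeq2, with log2 fold changes of 0.73 for Ltbp1, 1.03 for Ltbp2, 0.87 for Ltbp3 and 1.01 for Ltbp4. In each of them every DMM library was above every naive library, as was the case for 11.9% of all genes tested. Ltbp2, which is not known to bind TGF-beta but binds fibrillin and fibulin-5, had 683.3, 783.6, 911.9 and 1119.1 normalised counts in naive and 1407.3, 2026.4, 2188.1 and 1537.0 in DMM libraries. The margin was small for Ltbp4, a partner of fibulin-5 in elastin deposition, whose highest naive library had 878.7 and lowest DMM library 884.7.

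Of 5 other fibulins and hemicentins, 3 were called higher. Hmcn1, the gene of a very large matrix protein related to the fibulins, had 198.7, 162.3, 240.8 and 344.7 normalised counts in naive and 1826.1, 748.2, 1895.9 and 917.9 in DMM libraries, which is an increase of 2.51 in log2 units (SE 0.40, DESeq2 adjusted p = 4.55e-08). DMM 1 and DMM 3 were again the highest. Efemp2, the gene of fibulin-4, which brings lysyl oxidase to elastin, rose from 233.1 ± 23.6 to 392.4 ± 39.8 (log2 fold change 0.75, adjusted p = 2.28e-06). Fbln7 had a log2 fold change of 1.25 with overlapping groups and an adjusted p of 0.0396, and was no longer called without naive 1 (adjusted p = 0.113), naive 2 (0.116), naive 3 (0.0795), DMM 1 (0.135) or DMM 3 (0.133).

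Of 4 other emilins and multimerins, 2 were called higher. Emilin3 had 13.2, 21.3, 20.3 and 35.1 normalised counts in naive and 138.5, 92.4, 142.4 and 72.2 in DMM libraries, which is an increase of 2.32 in log2 units (SE 0.34, DESeq2 adjusted p = 1.72e-09). Mmrn2, the gene of an endothelial matrix protein, rose from 377.1 ± 7.91 to 599.4 ± 73.9 (log2 fold change 0.67). Among 8 fibrillin-binding Adamts and Adamts-like genes, Adamtsl3 (1.05) and Adamts6 (0.81, a protease that cleaves microfibril proteins) were called higher and 6 were not called.

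Of 8 elastin-degrading proteases, 7 were tested, all but Mmp7. Of these, 1 was called higher and 1 lower, against 7.75% and 5.92% of all genes tested. Mmp2, gelatinase A, rose from 1715.3 ± 500.0 to 5969.1 ± 2004.5 normalised counts (log2 fold change 1.80, DESeq2 adjusted p = 6.43e-10). Elane, the neutrophil elastase gene, fell from 3428.1 ± 366.6 to 1747.1 ± 668.0 (log2 fold change -0.97, adjusted p = 0.000238), beside the lower neutrophil list. None of the 10 receptor genes, integrins and the elastin receptor complex, was called by DESeq2 with the settings used here. At an unadjusted p under 0.05, 7 were higher and 1 lower, against 15.9% and 17% of all genes tested. The nearest was Itgav, the integrin alpha v chain that binds fibrillin, with a log2 fold change of 0.58 just under the 1.5-fold limit (adjusted p = 0.00013), and it was the 1 receptor gene called in edgeR and in limma-voom, with 0.60 in both. DESeq2 called it too with TMM factors (0.61), scaling by the total count (0.73), a mean count filter of 10 (0.59) or the replicate block (0.59). Without naive 4 its value was 0.69 and without DMM 2 it was 0.64, both called.

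**Figure D5:**
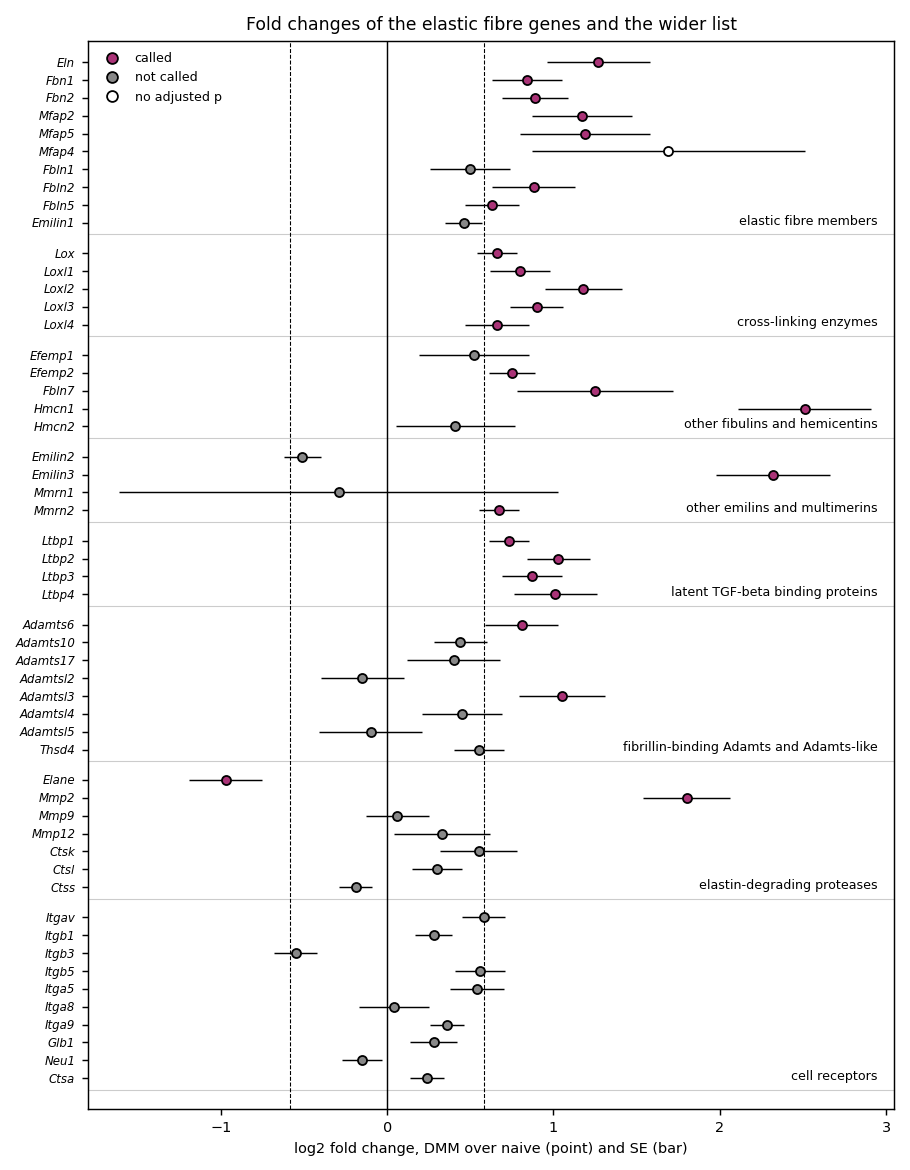
Log2 fold change, DMM over naive (x axis), with its SE for the 10 elastic fibre genes and the 43 tested genes of the wider list, grouped by role, with dashed lines at 1.5-fold in each direction. The 7 called elastic fibre genes, the 5 lysyl oxidases and the 4 latent TGF-beta binding proteins lie to the right of the upper line, and Elane alone is called to the left.

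Genes outside these lists with the most similar profiles were sought among 11039 genes whose mean normalised count was 100 or more, by the root mean square difference over the 8 libraries. Nearest to Eln were Ephb3 (0.136), an ephrin receptor, and Tril (0.169). Nearest to Fbn1 were Prrx1 (0.0842), a transcription factor of limb mesenchyme, Bicc1 (0.119) and Zfp521 (0.125). Nearest to the mean of the 10 genes were P3h3 (0.122), a collagen prolyl hydroxylase family member, Bicc1 (0.123) and Cygb (0.126), the cytoglobin gene. These distances describe the shape of the profile over 8 libraries in 2 groups and were not tested.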

How the data were processed

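The authors trimmed reads with Trimmomatic, quantified transcripts with Kallisto and summed them to genes with tximport, and the deposited table holds estimated counts, 39.2% of them with a fractional part of any size. The methods name GRCm38 with an Ensembl release of a later assembly, and the submitters' processing notes list kallisto, DESeq2 and GRCh38, so the build is uncertain. Use of strand is not given in the sources used here. Coordinates and exon lengths are from GENCODE vM21 (GRCm38), matched by gene identifier.

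Estimated counts were rounded and tested with DESeq2 1.42.0 in R 4.3.3 (Wald test with size factors by the median of ratios, its default filters, log2 fold changes without shrinkage, Benjamini-Hochberg adjustment over all genes). The Wald test and the 1.5-fold and adjusted p limits are those of the study; the rounding, filters and scaling were set here. All 8 libraries entered the fit without covariates. Levels per kilobase and CPM were computed from the same table. Ratios used a pseudocount of 0.5 and a two-sided exact permutation test over 70 assignments. The nearest profiles used log2(normalised count + 1). Named genes were the 10 members, up to 4 called genes by smallest adjusted p in each other group (or the first by adjusted p where none was called), and the 3 nearest profiles, of which 1 gene is not reported here. The members and all lists were chosen with earlier results of these data known. Libraries of a group differed by 10.4 to 63.8 chi-square per degree of freedom, so none was counted as a duplicate. Alternatives were edgeR 4.0.16, limma-voom 3.58.1, other scalings, filters and fold rules, a replicate block, and leaving out each library. The scripts were first tested on simulated data. The number of libraries and of counts limits precision, and p-values measure the spread between mice of one study.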

Additional observations from a re-analysis of the deposited data

Results flagged for a closer look

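Among 64 groups of 4 libraries examined, the 4 naive or 4 DMM values of each named gene and ratio, 1 held a value far from the other 3 by Dixon's criterion, where about 3.2 would be expected by chance. This was Itgav in naive 4, with 2136.2 normalised counts against 1564.7 to 1659.0 in the other naive libraries, a gap of 0.835 of the range of the group. Naive 4 was also the highest naive library for 6 of the 10 elastic fibre genes.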

How the results depend on the processing

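Of the 10 elastic fibre genes, 7 were called with DESeq2, TMM factors or other low-count filters, 6 with edgeR or limma-voom, 8 without the fold rule, 9 with total-count scaling and between 5 and 8 when each library was left out. The share of all genes called was counted only for the main setting, with 7.75% higher. The counts under other settings, for both lists, therefore have no such share beside them. With total-count scaling the median log2 fold change of all genes was 0.14, against -0.02 in the main fit. Against a null of a change of 1.5-fold or less, 0 of these genes were called by DESeq2 (1, at an unadjusted p under 0.05), and in the wider list 3 rose (Hmcn1, Emilin3 and Mmp2) and 0 fell. This test asks for more than the rule used here, in which only the estimate must pass 1.5-fold. Without the fold rule 24 genes of the wider list rose, against 17 with it, and 3 fell, and with total-count scaling 23 rose. Leaving out each library gave 15 to 22 genes of the wider list higher and 1 to 2 lower, with 2 lower without naive 2, naive 3 or naive 4. The differences in log2 ratio ranged over these fits from -0.19 to 0.29 for Fbn2 to Fbn1, 0.36 to 0.65 for Eln to Fbn1, -0.29 to 0.11 for Mfap5 to Mfap2 and 0.15 to 0.47 for Fbln2 to Fbln1. The cause of these shifts was not tested. With 3 libraries against 4 the exact test cannot go below 0.0571, so these are values with no test. Over 28 named genes and all alternatives no log2 fold change reversed, 36 values lost a call and 13 gained one.

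The labels give both groups the same replicate numbers, but correlations of same-numbered libraries' deviations were 0.0498, 0.058, -0.119 and 0.117, and libraries did not all correlate best with their own number. The labels used here name no other link between same-numbered libraries, and whether these were processed together was not tested. With the replicate block 7 elastic fibre genes were called, and in the wider list 18 rose and 1 fell. Depth limits Mfap4, with 2 to 29 estimated counts per library, and Mfap5.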

Other observations

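The following values were noticed after the data were seen. Mmrn1, the gene of a platelet and endothelial multimerin, was listed at 0 in naive 2 but had 326.5 to 725.6 normalised counts in the other naive libraries and 246.2 to 402.6 in DMM libraries. Emilin2 fell outside the called genes but was lower in DMM libraries, with 1367.5 ± 123.7 normalised counts in naive and 960.8 ± 71.1 in DMM (SD, n = 4, log2 fold change -0.51, DESeq2 adjusted p = 7.05e-05, below 1.5-fold), and its libraries did not overlap between groups. Itgb3, a partner chain of the alpha v integrin, showed the same, with 4680.1 ± 775.8 and 3189.7 ± 101.0 (log2 fold change -0.55, DESeq2 adjusted p = 0.000224). The share of all genes with every DMM library below every naive library was not counted.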
